A study of Mus musculus with 6 samples.

Results

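The 33 genes of MYC and the nucleolus described here were taken by their symbols from the 31053 genes of the feature lists. They comprise Myc itself, ribosome biogenesis factors and genes known as targets of the MYC protein, and all 33 were found. The tissue was the pancreatic lymph node, a site where T cells meet antigen from the pancreas. The RNA of single cells was counted in droplets (10x Genomics), with a unique molecular identifier (UMI) on each captured molecule. One library came from each of 6 mice: 3 CD4-Cre+ mice (Cre-positive 1 to 3) and 3 CD4-Cre- mice (Cre-negative 1 to 3), and all 6 carried the same floxed gene, which is not reported here. CD4-Cre removes floxed DNA in T cells of both the CD4 and the CD8 lineage, because its promoter is active in thymocytes that carry both coreceptors, and B cells do not use that promoter. The labels give no strain, sex or age.

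MYC is a transcription factor that pairs with MAX and binds the E-box, the sequence CACGTG, near the start of many genes used in growth. When a lymphocyte is stimulated, MYC accumulates and the cell enlarges its nucleoli, where RNA polymerase I transcribes ribosomal RNA and small nucleolar ribonucleoproteins (snoRNPs) guide its chemical modification. Box C/D snoRNPs carry the methyltransferase fibrillarin (Fbl) with Nop56 and Nop58, and box H/ACA snoRNPs carry the pseudouridine synthase dyskerin (Dkc1) with Nop10, Nhp2 and Gar1. The Myc messenger RNA itself is short-lived, and much of the control of the protein lies after transcription.

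The E-box was looked for in the 250 bases before the RefSeq start site of each gene (assembly GRCm38.p6). A window was found for 27 members, and 5 of them held the motif (18.5%), against 1633 of 27025 genes overall (6.04%). The motif CACGTG reads the same on both strands, so each match was counted once. Cdk4, a cyclin-dependent kinase of the G1 phase, held 4 copies, the only member with more than 1, against 117 genes overall with 2 or more (0.433%). The other 4 were Ran, Eif4a1, Set and Nme1, and the matches of Set and Nme1 lay in stretches that overlap annotated exons and are not shown. The 3 stretches below are those of Ran, Cdk4 and Eif4a1, with every E-box in capitals, read 5′ to 3′ on the gene's strand. The levels of these members, and of Set and Nme1, were higher in both cycling gates. This did not set them apart: 20 members were higher in both, among them Odc1, Nhp2 and Hnrnpab, where no match was found. Whether the motif goes with the rise was not tested. The match is a description of the letters, not of binding.
Ran, chr5:129019998-129020068, plus strand: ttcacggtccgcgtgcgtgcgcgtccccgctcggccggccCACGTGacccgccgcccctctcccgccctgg
Cdk4, chr10:127063323-127063533, plus strand: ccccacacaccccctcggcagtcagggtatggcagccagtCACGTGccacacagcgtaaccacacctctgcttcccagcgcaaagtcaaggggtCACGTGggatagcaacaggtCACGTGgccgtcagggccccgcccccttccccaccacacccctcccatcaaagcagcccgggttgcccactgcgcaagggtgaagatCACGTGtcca
Eif4a1, chr11:69672567-69672652, minus strand: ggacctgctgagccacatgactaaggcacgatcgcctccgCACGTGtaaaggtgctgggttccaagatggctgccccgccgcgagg

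The libraries held 47149014 to 61321105 UMIs, and 51777 cells passed the filters, 6834 to 9529 per mouse. Any 2 libraries shared 16 to 39 cell barcodes, at most 0.393% of the smaller one. Cells were sorted into gates by marker UMIs. T, B, naive, memory and cycling cells needed 2 UMIs of their markers, whereas CD4, CD8 and regulatory cells needed a single UMI. Gates also excluded cells by markers that had to be absent, as given in the processing section. The main gates held 7911 naive CD4, 3199 naive CD8, 1555 memory CD4, 2497 memory CD8, 796 regulatory, 440 cycling T, 9425 resting B and 220 cycling B cells over the 6 mice. Several markers outside the gates' rules followed the names, but not all did. Stmn1, a mitosis-linked tubulin regulator, averaged 732 CPM (counts per 1e6, with library sizes adjusted by TMM factors, explained below) in cycling T and 754 CPM in cycling B cells, against 12 to 37 CPM in the other gates. The regulatory cell gene Ikzf2 averaged 686 CPM in regulatory, 240 CPM in memory CD4 and 8.06 CPM in naive CD4 cells, and Cd44 88.5 CPM in memory and 23.2 CPM in naive CD4 cells. S1pr2, a receptor that keeps B cells in germinal centres, averaged 66.3 CPM in cycling B and 1.44 CPM in resting B cells. In memory CD8 and naive CD8 cells Cd44 averaged 28.4 and 10.5 CPM, and Eomes 42.5 and 14.8 CPM. Id2 (233 and 276 CPM), Tcf7 (350 and 352 CPM) and Il7r (418 and 402 CPM) had overlapping ranges in these CD8 gates.

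Together the 33 genes made up 0.895% ± 0.163 of all UMIs in cycling T cells and 0.917% ± 0.193 in cycling B cells (SD, n = 6 mice). The share was 0.629% in memory CD8, 0.588% in memory CD4, 0.582% in regulatory, 0.557% in naive CD8, 0.534% in naive CD4 and 0.519% in resting B cells. This order is of unscaled UMIs and turns in part with the scaling: the summed level in scaled CPM averaged 5302 in memory CD4 and 5069 in regulatory cells, below the 5647 of naive CD4 cells. Summed levels were 7190 to 10690 CPM in cycling T cells, and 5462 to 6113 CPM in naive T cells. Without a split into CD4 and CD8 cells, every mouse's cycling T cells thus lay above every mouse's naive T cells, which did not hold within each lineage (below). In cycling T cells the highest mouse was Cre-positive 2. Levels in CPM use one TMM scale over all gates and mice, whereas each fold change comes from a fit scaled for its own contrast, so the ratio of 2 levels and the fold change can differ a little.

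**Figure D1:**
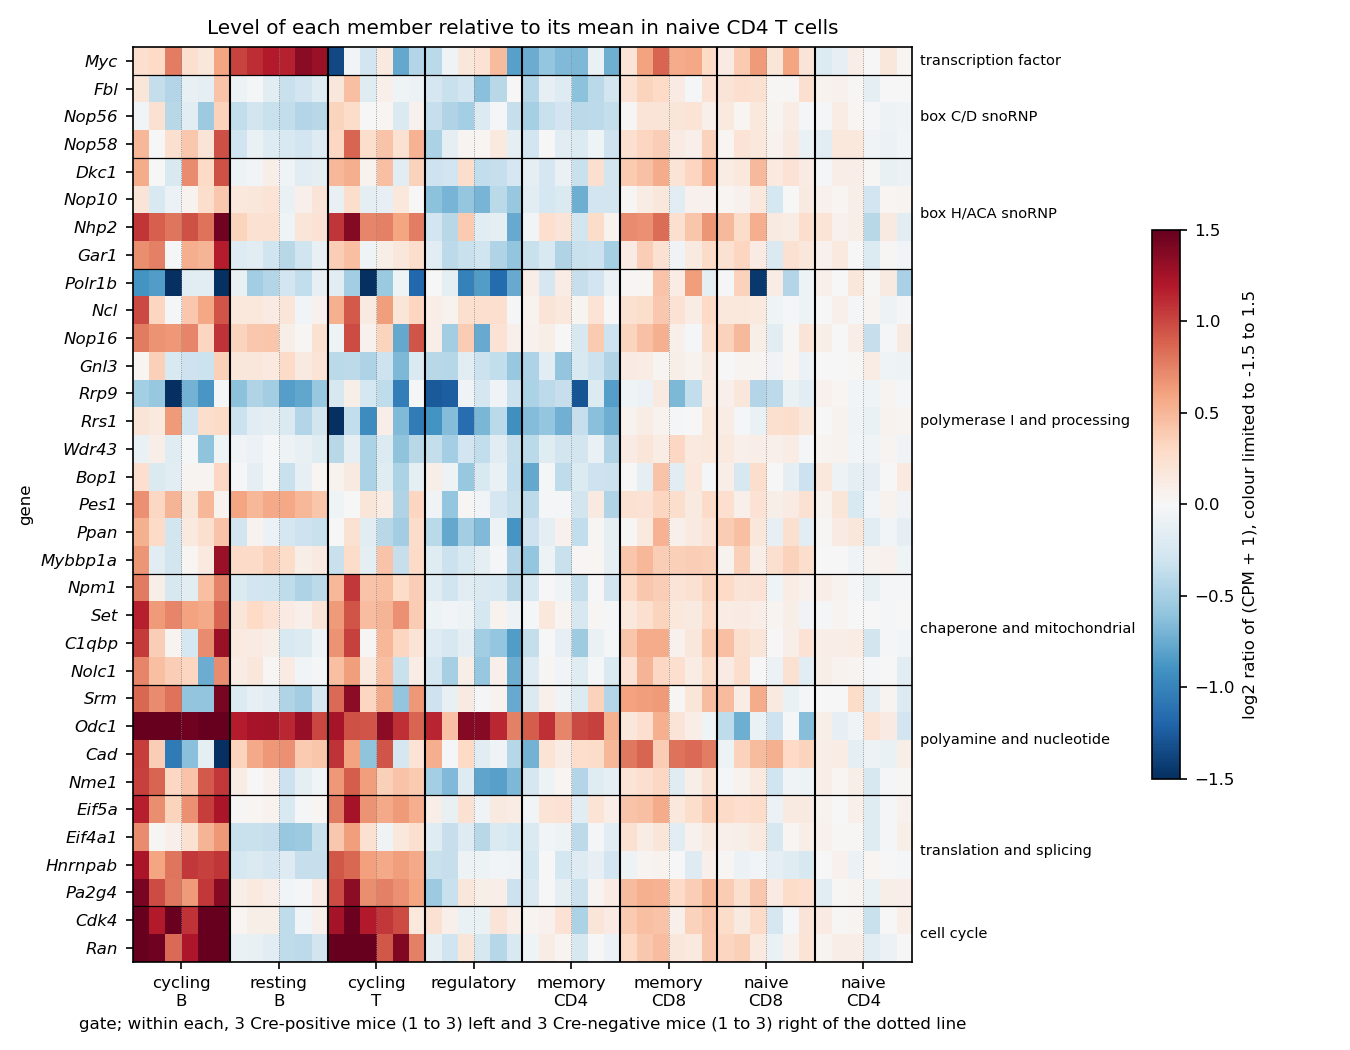
Rows are the 33 genes by role and columns the 6 mice in each of 8 gates; colour is the log2 ratio of (CPM + 1) to the gene's mean in naive CD4 cells, limited to -1.5 to 1.5. Cdk4, Ran, Nhp2 and Odc1 are red in both cycling gates, whereas Myc is reddest in resting B cells.

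Myc, the transcription factor, did not follow this order. Its level was 78.6, 84.0 and 89.0 CPM in resting B cells of Cre-positive 1 to 3 and 87.0, 100 and 95.9 CPM in those of Cre-negative 1 to 3. In naive T cells it was 36.7, 40.8 and 46.6 CPM in Cre-positive 1 to 3 and 40.9, 49.7 and 41.5 CPM in Cre-negative 1 to 3. No mouse's naive T cells reached the lowest resting B value, and the fitted fold was 2.10 (log2 1.07 ± 0.04 SE, edgeR adjusted p = 1.167e-26, higher in 6 of 6 mice). Below resting B cells came memory CD8 cells at 56.2 ± 9.53 CPM, cycling B cells at 51.2 ± 9.09 CPM and naive CD8 cells at 49.9 ± 7.99 CPM, 3 means closer than their SDs. Naive CD4 cells averaged 38.4 ± 3.68 CPM, regulatory cells 38.2 ± 11.7 CPM, cycling T cells 29.4 ± 10.2 CPM and memory CD4 cells 25.7 ± 5.09 CPM. Neighbours among these 4 also lay within their SDs. Cycling cells held more UMIs, and Myc UMIs per cell were 0.420 in cycling T and 0.207 in naive T cells, and 0.600 in cycling B and 0.391 in resting B cells, so the order per cell differed from the order in CPM. A Myc UMI was seen in 15.6% to 27.1% of cycling T cells per mouse and in 12.1% to 17.4% of naive CD4 cells. Cells with at least 2000 UMIs were also thinned to 2000 UMIs, and cells with fewer were left out. The shares were then 1.32% to 10.8% and 5.53% to 7.60%, and the ranges overlapped.

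The first comparison asked which of the genes are higher in dividing T cells than in naive ones. Cycling T cells had 21 of the 33 higher and 3 lower than naive T cells, with a median log2 fold change of 0.41. Over the 9838 genes tested, 25.7% were called higher and 23% lower at an adjusted p under 0.05, with a median of -0.04. Both cell cycle members rose: Ran, the GTPase of nuclear transport and spindle assembly, and Cdk4. Ran was 843 to 939 CPM (median 896) in Cre-positive and 504 to 779 CPM (median 568) in Cre-negative cycling T cells, and its naive T range over all 6 mice was 277 to 344 CPM, so the gates did not overlap. Its log2 fold change was 1.41 ± 0.09 (SE), with an adjusted p of 4.57e-12. Cdk4 rose by 1.24 ± 0.12 on the same scale.

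All 4 polyamine and nucleotide members rose in cycling T cells. Odc1, the rate-limiting enzyme of polyamine synthesis, had a lowest, median and highest level of 139, 155 and 193 CPM in cycling T cells, against 59.2, 73.4 and 82.0 CPM in naive T cells. The gates did not overlap, and the log2 fold change was 1.33 ± 0.08 (adjusted p = 2.062e-23). Srm, spermidine synthase, rose by 0.75 ± 0.18 and was higher in 4 of 6 mice. Nme1, a nucleoside diphosphate kinase, rose by 0.73 ± 0.07, although its reads can also be assigned to an overlapping readthrough gene model. Cad, which starts pyrimidine synthesis, rose by 0.53 ± 0.23 with an adjusted p of 0.0482.

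The snoRNP proteins rose unequally. Nhp2 was 143, 177 and 114 CPM in cycling T cells of Cre-positive 1 to 3 and 116, 103 and 116 CPM in those of Cre-negative 1 to 3. In naive T cells it was 85.2, 76.1 and 80.2 CPM in Cre-positive 1 to 3 and 58.4, 76.1 and 67.9 CPM in Cre-negative 1 to 3. Every cycling value lay above every naive value, at a log2 fold change of 0.98 ± 0.09 (adjusted p = 9.957e-14). Its partners Dkc1 and Gar1 rose by 0.39 ± 0.09 and 0.32 ± 0.09, and Nop10 was at 0.16 ± 0.07, which did not pass (adjusted p = 0.0693). In the box C/D group Nop58 rose by 0.57 ± 0.08 and Nop56 by 0.21 ± 0.08, while Fbl, at 0.18 ± 0.08, did not pass.

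The 11 polymerase I and processing members split: 2 rose, 3 fell and 6 did not pass. Nucleolin (Ncl), an abundant nucleolar RNA-binding protein, rose by 0.59 ± 0.07 in 6 of 6 mice, and Nop16 rose by 0.47 ± 0.16 but was higher in only 3 of 6. Gnl3 (nucleostemin), a nucleolar GTPase, was 90.0 to 124 CPM in cycling T and 139 to 155 CPM in naive T cells, without overlap, and fell by 0.28 ± 0.08 on the log2 scale. Rrs1, a large-subunit assembly factor, fell by 0.49 ± 0.15 and Wdr43, a small-subunit factor, by 0.24 ± 0.09. Bop1, Pes1, Ppan, Rrp9, Mybbp1a and Polr1b, a core subunit of polymerase I, lay between -0.62 and 0.14 and did not pass; Polr1b had 19 UMIs in all cycling T cells. All 4 chaperone and mitochondrial members rose: the histone chaperones Set (0.73 ± 0.06) and nucleophosmin Npm1 (0.62 ± 0.08), the mitochondrial protein C1qbp (0.58 ± 0.10) and the snoRNP chaperone Nolc1 (0.41 ± 0.09). So did all 4 translation and splicing members, namely the growth-linked RNA-binding protein Pa2g4 (0.94 ± 0.09), Hnrnpab (0.88 ± 0.07), the hypusine-carrying factor Eif5a (0.85 ± 0.07) and the helicase Eif4a1 (0.41 ± 0.07).

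**Figure D2:**
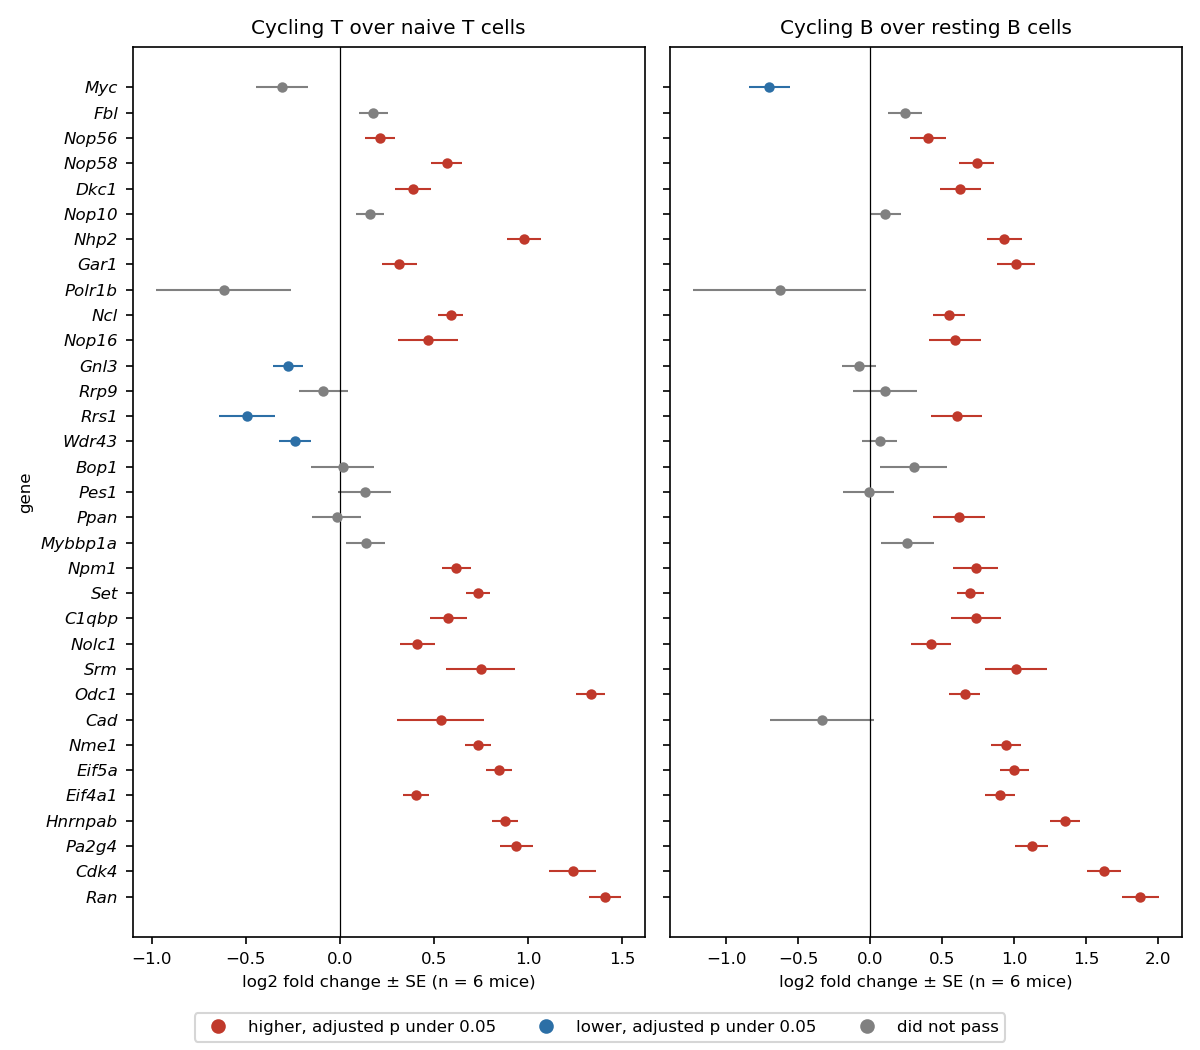
Points are log2 fold changes and bars their standard errors for the 33 genes, cycling T over naive T cells on the left and cycling B over resting B cells on the right (n = 6 mice each). Myc and most polymerase I and processing genes sit near or left of 0, while Ran and Cdk4 sit farthest right in cycling B cells.

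The counts of called genes were smaller with shallower cells. In a further run, cells were thinned to 2000 UMIs before summing and cells with fewer were left out. Deep cells then no longer weighed more, and fewer UMIs entered the test. Of the 33, 9 were then higher in cycling than in naive T cells and 0 lower, and Dkc1, Gar1, Srm and Nolc1 had values below 0. Among cells with at most 5% mitochondrial UMIs, 1 of the 33 was lower in place of 3. Median UMIs per cell were 5432 to 9958 in cycling T cells of the 6 mice, against 4555 to 5769 in naive T cells, and the part of depth in these differences was not tested. B cell markers summed to 50.9 to 62.6 CPM in cycling T cells and 71.6 to 89.8 CPM in naive T cells. Natural killer markers summed to 12.3 to 284 CPM in cycling T cells and 33.7 to 47.6 CPM in naive T cells, and their part in the result was not tested.

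Lists of related genes showed where the 33 sit within the wider pathway. Of 27 nucleotide synthesis genes, 20 were higher and 1 lower in cycling than in naive T cells, among them Tyms (log2 4.43 ± 0.13) and the serine-synthesis genes Psat1 (2.19 ± 0.15) and Phgdh (1.61 ± 0.09). Of 33 other MYC-linked genes of metabolism, transport and chaperones, 25 were higher and 1 lower, including the Ran partner Ranbp1 (1.14 ± 0.08) and, as the one that fell, Ccnd2 (-0.88 ± 0.08). By contrast, of 80 other ribosomal subunit processing factors 14 were higher and 14 lower, for example Lyar at 1.06 ± 0.09 and Wdr46 at -0.79 ± 0.11. Of 24 polymerase I and III genes, 4 were higher and 5 lower, with the initiation factor Rrn3 at -0.70 ± 0.18 and the polymerase III repressor Maf1 at -0.60 ± 0.10. Cytosolic ribosomal protein genes were higher for 2 and lower for 17 of 22, with a median of -0.20. Among 15 tested MYC partners and antagonists, Mxd3, a MAX partner that opposes MYC, was 6.38 ± 0.31 higher, Ruvbl2 0.83 ± 0.13 and Ruvbl1 0.62 ± 0.11 higher, and Mga and Mlxip were lower. Translation factors had 13 of 21 higher and 2 lower, and polyamine and hypusine genes 4 of 10 higher and 2 lower.

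Against memory T cells, cycling T cells had 19 of the 33 higher and 3 lower (median 0.30); 22% of 9105 genes were called higher and 17.4% lower. Hnrnpab, an RNA-binding protein of the hnRNP family, had the smallest p here, with levels of 312 to 401 CPM in cycling T and 190 to 215 CPM in memory T cells and a log2 fold change of 0.90 ± 0.07 (adjusted p = 1.515e-12). Ran rose by 1.25 ± 0.12, Cdk4 by 1.00 ± 0.12 and Odc1 by 0.69 ± 0.08. Myc fell: it was 14.4 to 42.8 CPM (median 29.7) in cycling T cells and 35.3 to 54.7 CPM (median 45.6) in memory T cells, lower in 6 of 6 mice (log2 -0.45 ± 0.14, adjusted p = 0.00863). The other 2 lower genes were Gnl3 and Wdr43. The number of lower genes was 0 without Cre-positive 3 and 0 without Cre-negative 2, which have 78 and 61 of the 440 cycling cells. Thinned cells gave 8 higher and 0 lower.

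Cycling CD4 and CD8 T cells were set apart in a comparison added after the data were seen. Cycling CD4 cells (201 cells) had 14 of 33 higher and 4 lower than naive CD4 cells, with 21.7% of 9102 genes higher and 19.2% lower. The lower ones were Gnl3, Myc, Rrs1 and Wdr43, with Myc at -0.56 (adjusted p = 0.0153). Cycling CD8 cells (127 cells) had 13 of 32 tested members higher and 0 lower than naive CD8 cells, with 12.9% of 7682 genes higher and 8.93% lower, and Myc was at -0.12, which did not pass. The 2 lists of higher genes shared 11, which is 11 of 14 for CD4 and 11 of 13 for CD8 cells. Summed over the 33, cycling CD4 cells were below naive CD4 cells in Cre-positive 2 (5497 against 5848 CPM) and Cre-negative 3 (5425 against 5616 CPM). Cycling CD8 cells were below naive CD8 cells in Cre-positive 3 (6107 against 6368 CPM). In the other mice the cycling cells were higher, up to 15380 CPM in the 31 cycling CD8 cells of Cre-positive 2.

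Cycling B cells had 22 of the 33 higher and 1 lower than resting B cells, with a median of 0.61; 22.1% of 9175 genes were called higher and 19.9% lower. Cdk4 was 188, 135 and 166 CPM in cycling B cells of Cre-positive 1 to 3 and 125, 187 and 184 CPM in those of Cre-negative 1 to 3. In resting B cells it was 59.6, 61.9 and 61.9 CPM in Cre-positive 1 to 3 and 44.7, 56.6 and 61.7 CPM in Cre-negative 1 to 3. Every cycling value was above every resting value, and the log2 fold change was 1.62 ± 0.12 (adjusted p = 8.796e-17). Ran rose by 1.88 ± 0.13 and Hnrnpab by 1.35 ± 0.10. The snoRNP proteins Gar1 (1.02 ± 0.13), Nhp2 (0.93 ± 0.12), Nop58 (0.74 ± 0.12), Dkc1 (0.63 ± 0.14) and Nop56 (0.40 ± 0.13) rose too.

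The gene that fell in cycling B cells was Myc, at 43.2 to 66.3 CPM (median 46.8) in cycling B cells and 78.6 to 100 CPM (median 88.0) in resting B cells, without overlap between the gates. Its log2 fold change was -0.70 ± 0.14 (adjusted p = 7.135e-05, lower in 6 of 6 mice). Immediate early genes, which are induced within minutes of a stimulus, were lower beside it: 0 of 20 tested were higher and 13 lower, and they summed to 2169 to 4690 CPM in cycling B and 7244 to 8654 CPM in resting B cells. In cycling T cells they summed to 3403 to 5217 CPM, against 7191 to 8534 CPM in naive T and 6193 to 7338 CPM in memory T cells. Of 20 tested, 6 were higher and 8 lower than in naive T cells, and 0 higher and 11 lower than in memory T cells. Their relation to Myc was not tested. In this comparison Rrs1 was 0.60 ± 0.18 higher, and 20 members were higher in both the T and the B cell comparison, which is 20 of 21 and 20 of 22. All 9 germinal centre markers tested were higher, and they summed to 1186 to 1630 CPM in cycling B and 69.5 to 105 CPM in resting B cells. Plasma cell markers, 4 of 7 higher and 2 lower, summed to 845 to 8223 CPM in cycling B and 500 to 1333 CPM in resting B cells. Erythroid and platelet markers were 28340 CPM in cycling B cells of Cre-negative 1 and 56.1 to 137 CPM in those of the other mice. The part of these cells in the members' differences was not tested. Nucleotide synthesis genes were again mostly higher, at 20 of 27 with 1 lower, and so were 26 of 33 other MYC-linked genes with 1 lower, while ribosomal protein genes were higher for 2 and lower for 6 of 22. Thinned cells gave 8 of the 33 higher and 0 lower.

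**Figure D3:**
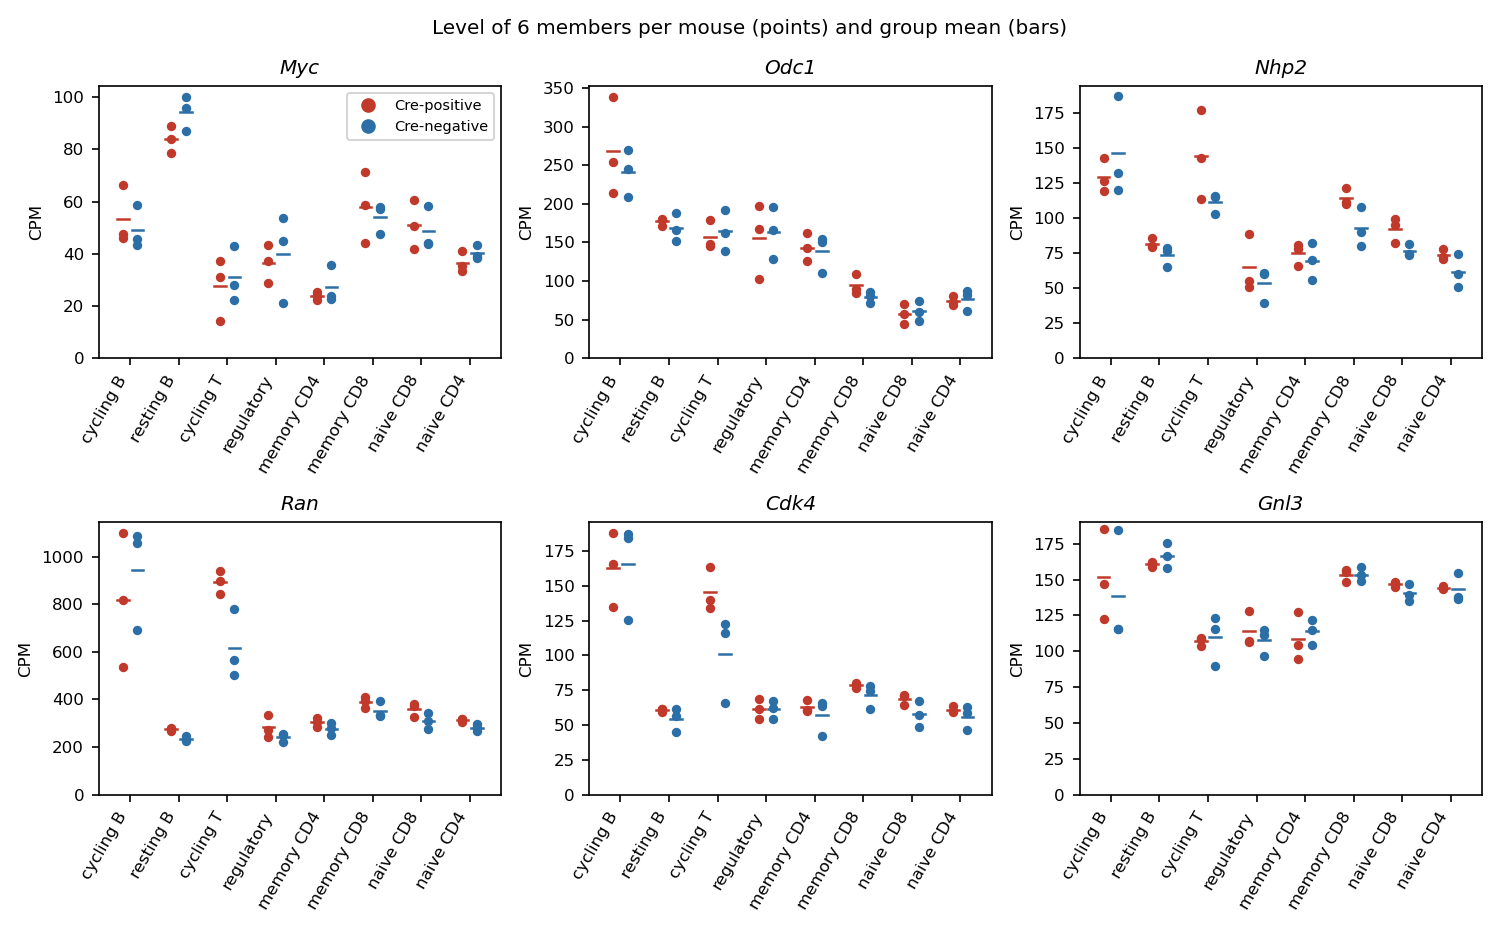
Points are the level in CPM of 6 of the genes in each mouse and gate, Cre-positive in red left of Cre-negative in blue, and bars are group means (n = 3 mice each). Odc1 is 110 to 162 CPM in memory CD4 cells against 61.6 to 86.7 CPM in naive CD4 cells, and Myc is above 78 CPM only in resting B cells.

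Memory and regulatory CD4 cells differed from naive CD4 cells in the other direction for most called genes. Memory CD4 cells had 3 of the 33 higher and 12 lower (median -0.09), with 18.4% of 9444 genes called higher and 17.4% lower. Odc1 was 143, 162 and 125 CPM in memory CD4 cells of Cre-positive 1 to 3 and 151, 155 and 110 CPM in those of Cre-negative 1 to 3. In naive CD4 cells it was 80.3, 68.9 and 72.9 CPM in Cre-positive 1 to 3 and 86.7, 81.9 and 61.6 CPM in Cre-negative 1 to 3. The gates did not overlap, and the log2 fold change was 0.97 ± 0.06 (adjusted p = 3.149e-31). Ncl (0.17 ± 0.04) and Eif5a (0.15 ± 0.04) were the other 2 that rose.

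The 12 that fell in memory CD4 cells included Rrs1 (-0.55 ± 0.10), Myc (-0.52 ± 0.10, adjusted p = 4.931e-06), Rrp9, a U3 snoRNP protein (-0.51 ± 0.10), Nop56 (-0.33 ± 0.06), Gnl3 (-0.30 ± 0.05), Gar1 (-0.30 ± 0.07), Fbl (-0.28 ± 0.05) and Nop10 (-0.26 ± 0.05). Wdr43 fell by 0.22 ± 0.06, and Hnrnpab, Nme1 and Npm1 by 0.09 to 0.12. All 22 ribosomal protein genes tested were lower in the same comparison, with a median of -0.41, as were 26 of 80 processing factors against 4 higher. The MAX partner Mxd4, which opposes MYC, was 0.75 ± 0.06 higher. Germinal centre markers, which include the follicular helper gene Bcl6, summed to 56.7 to 93.1 CPM in memory CD4 and 35.2 to 43.5 CPM in naive CD4 cells, with 4 of 4 tested higher. Genes of regulatory cells were at higher levels in memory CD4 than in naive CD4 cells in every mouse: Ikzf2 was 178 to 277 CPM and Ctla4 222 to 359 CPM in memory CD4 cells, against 5.24 to 10.2 CPM and 18.6 to 23.4 CPM in naive CD4 cells. The regulatory gate itself held 584 to 748 CPM of Ikzf2 and 469 to 718 CPM of Ctla4. The part of such cells in the memory CD4 result was not tested.

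These 2 counts turned on the scaling. TMM scaling (trimmed mean of M-values) sets the bulk of genes to no change, and with total UMIs alone 9 of the 33 were higher and 5 lower in memory CD4 cells. That scaling moved the median log2 fold change of all genes by 0.17, and 83.3% of called genes were then higher, against 51.4% with TMM. The median of the 33 was then 0.08, below the 0.17 of all genes. Hnrnpab, Nme1 and Npm1 then had values above 0. Odc1 rose and Rrs1, Myc and Nop56 fell with either scaling.

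Regulatory cells had 3 of the 33 higher and 14 lower (median -0.13), with 18.7% of 9197 genes higher and 17.7% lower. Odc1 rose by 1.16 ± 0.08 (adjusted p = 8.757e-24), at 103 to 197 CPM in regulatory and 61.6 to 86.7 CPM in naive CD4 cells, and Ncl and Eif5a rose by 0.23 ± 0.04 and 0.15 ± 0.05. Nop10 was 125 to 153 CPM in regulatory and 166 to 217 CPM in naive CD4 cells, without overlap, and fell by 0.52 ± 0.06 (adjusted p = 1.137e-11). Rrs1 fell by 0.72 ± 0.14, Nme1 by 0.50 ± 0.06 and Ppan by 0.50 ± 0.14. Myc was at 0.07 ± 0.12 and did not pass. All 22 ribosomal protein genes were lower (median -0.49), and the MYC antagonists Mxd4 (1.15 ± 0.08), Mxi1 (0.89 ± 0.18) and Mxd1 (0.77 ± 0.12) were higher. With total UMIs alone 6 of the 33 were higher and 3 lower, the median of all genes moved by 0.20, and 79.9% of called genes were higher against 51.4% with TMM.

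Memory CD8 cells had 15 of the 33 higher and 0 lower than naive CD8 cells (median 0.16), with 6.72% of 8842 genes higher and 6.06% lower. Odc1 rose by 0.57 ± 0.07 (adjusted p = 2.106e-13), at 72.1 to 109 CPM in memory and 45.0 to 74.6 CPM in naive CD8 cells. Cad rose by 0.47 ± 0.15, Nhp2 by 0.30 ± 0.05, Cdk4 by 0.25 ± 0.06, Eif5a by 0.21 ± 0.03, Ncl by 0.20 ± 0.03 and Npm1 by 0.17 ± 0.02. Myc was at 0.17 ± 0.07 and did not pass. Memory CD8 cells held more UMIs, with medians of 5981 to 8124 per mouse against 4855 to 5975 in naive CD8 cells, and after thinning 4 of the 33 were higher. Of the genes higher in memory CD4 cells, all 3 were among the 15 of memory CD8 cells, and Npm1 and Nme1 were lower in memory CD4 and higher in memory CD8 cells. With total UMIs alone 17 were higher, and 64.9% of called genes were higher against 52.6% with TMM.

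**Figure D4:**
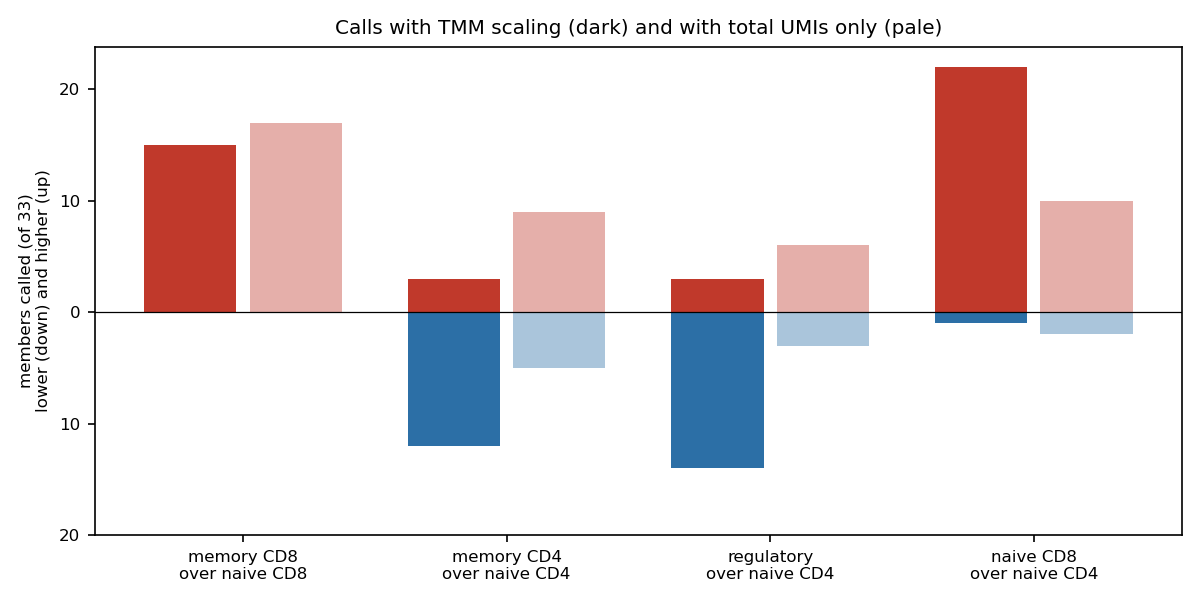
Bars are the numbers of the 33 genes called higher (up, red) and lower (down, blue) in 4 comparisons, with TMM scaling in dark and total UMIs alone in pale colours. For memory CD4 over naive CD4 cells the counts change from 3 higher and 12 lower with TMM to 9 higher and 5 lower.

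Naive CD8 cells had 22 of the 33 higher and 1 lower than naive CD4 cells (median 0.16), with 16.8% of 9460 genes higher and 16.4% lower. Myc was 41.9 to 60.4 CPM (median 47.4) in naive CD8 and 33.3 to 43.3 CPM (median 38.8) in naive CD4 cells, higher in 6 of 6 mice at a log2 fold change of 0.42 ± 0.07 (adjusted p = 3.525e-08). Npm1 rose by 0.18 ± 0.02 (adjusted p = 1.541e-17), Nhp2 by 0.35 ± 0.05, Pa2g4 by 0.33 ± 0.05 and Cad by 0.40 ± 0.15. Odc1 fell by 0.32 ± 0.06. All 22 ribosomal protein genes were higher (median 0.19). With total UMIs alone 10 were higher and 2 lower, and 30.1% of called genes were higher against 50.7% with TMM.

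Resting B cells had 10 of the 33 higher and 17 lower than naive T cells (median -0.10), in a comparison where 36.6% of 10805 genes were called higher and 37.7% lower. Odc1 had the largest rise of the 33, 1.29 ± 0.04, at 152 to 189 CPM in resting B cells and 59.2 to 82.0 CPM in naive T cells. Pes1, a large-subunit assembly factor, rose by 0.48 ± 0.06 and Cad by 0.44 ± 0.10. Npm1 was 1144, 1087 and 1077 CPM in resting B cells of Cre-positive 1 to 3 and 1016, 963 and 1006 CPM in those of Cre-negative 1 to 3. In naive T cells it was 1512, 1444 and 1389 CPM in Cre-positive 1 to 3 and 1272, 1387 and 1358 CPM in Cre-negative 1 to 3. The gates did not overlap, and Npm1 fell by 0.40 ± 0.02 (adjusted p = 1.183e-23).

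Eif4a1 was 292, 292 and 289 CPM in resting B cells of Cre-positive 1 to 3 and 248, 252 and 291 CPM in those of Cre-negative 1 to 3, against 331 to 402 CPM in naive T cells. It fell by 0.44 ± 0.03 (adjusted p = 1.194e-19), lower in 6 of 6 mice and without overlap. Nop56 was 92.2, 98.8 and 94.8 CPM in resting B cells of Cre-positive 1 to 3 and 92.5, 88.0 and 89.3 CPM in those of Cre-negative 1 to 3, against 118 to 130 CPM in naive T cells. It fell by 0.41 ± 0.04 (adjusted p = 1.424e-14), again without overlap. Rrp9 fell by 0.62 ± 0.06, Srm by 0.38 ± 0.07, Gar1 by 0.32 ± 0.05 and Ran by 0.30 ± 0.03. All 22 ribosomal protein genes were lower (median -0.32), and of 80 processing factors 15 were higher and 37 lower. Npm1, Ran, Set, Eif5a and Eif4a1 have near-identical processed copies in the genome, so their counts are uncertain by the reads such copies share.

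Naive CD4 cells with 2 or more UMIs of the early response genes Nr4a1, Egr1 and Fosb (signal-high) were set against the other naive CD4 cells. Whether antigen or another stimulus induced these genes was not tested. The 1271 signal-high cells had 8 of the 33 higher and 0 lower (median 0.13), with 3.9% of 9022 genes called higher and 1.98% lower. Ncl was 674, 748 and 776 CPM in signal-high cells of Cre-positive 1 to 3 and 731, 702 and 698 CPM in those of Cre-negative 1 to 3. In the other naive CD4 cells it was 634, 647 and 573 CPM in Cre-positive 1 to 3 and 632, 588 and 615 CPM in Cre-negative 1 to 3. The ranges did not overlap, and the log2 fold change was 0.30 ± 0.03 (adjusted p = 2.428e-12). Myc rose by 0.42 (adjusted p = 0.00241), at 38.8 to 52.6 CPM in signal-high and 30.4 to 43.1 CPM in the other cells. Odc1 rose by 0.40, and Nop56, Set, Hnrnpab, Eif5a and Npm1 by 0.10 to 0.22. The kinase gene Pim1 (0.46 ± 0.04) and the amino acid transporter chain Slc3a2 (0.46 ± 0.08) were higher as well. After thinning, 2 of the 33 were higher.

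The study's own question concerns the floxed gene in T cells, and it was asked of the 33 genes in 8 gates. None passed in any gate: 0 of 256 tests of a gene in a gate had an adjusted p under 0.05 by edgeR, and 36 had an unadjusted p under 0.05. DESeq2 also called 0 of them. By gate the 36 were 4 in naive CD4, 10 in naive CD8, 0 in memory CD4 and 6 in memory CD8 cells. They were 2 in regulatory, 8 in cycling T, 6 in resting B and 0 in cycling B cells. Over all genes tested, 4.17% to 5.70% had an unadjusted p under 0.05 in the gates other than cycling T, and 11.1% in cycling T cells. Of all genes, 0.0398% were called in naive CD4, 0.0341% in naive CD8, 0% in memory CD4, 0.0111% in memory CD8, 0% in regulatory, 0.188% in cycling T, 0% in resting B and 0.0224% in cycling B cells. The smallest adjusted p among the 33 was 0.0969, for Ran in cycling T cells (log2 0.52 ± 0.14). There Ran was 896, 939 and 843 CPM in Cre-positive 1 to 3 and 568, 779 and 504 CPM in Cre-negative 1 to 3, so the groups did not overlap. Ran passed in 2 of the alternatives: without Cre-negative 2 it was 0.72 ± 0.14 higher (adjusted p = 0.0021) and without the low-count filter 0.56 ± 0.13 (adjusted p = 0.00916).

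The fitted differences were mostly above 0 in some gates and evenly split in others. In naive CD4 cells 27 of 33 were above 0 (median 0.09), in naive CD8 cells 29 of 33 (0.13), in memory CD4 cells 22 of 32 (0.04), in memory CD8 cells 28 of 33 (0.10), in regulatory cells 17 of 31 (0.04), in cycling T cells 25 of 32 (0.18), in resting B cells 30 of 33 (0.10) and in cycling B cells 14 of 29 (-0.01). The gates share mice, so these counts are not separate evidence. Of all genes tested in a gate, 48.3% (cycling T) to 51.0% (naive CD4) were above 0. Under the alternatives, 22 to 29 of 33 were above 0 in naive CD4 cells and 26 to 30 of 33 in resting B cells. In naive CD8 and memory CD8 cells 24 to 29 were above 0, of 32 or 33 tested. The direction held less well in the other gates. Cre-negative 1 was the lowest mouse for 15 of the 33 in naive CD4 and 16 in memory CD4 cells. Without it, 28 of 33 were above 0 in naive CD4 (median 0.05) and 15 of 32 in memory CD4 cells (median -0.01). Without Cre-positive 2, also 15 of 32 were above 0 in memory CD4 cells (median -0.01). With at most 5% mitochondrial UMIs per cell 12 of 32 were above 0 there (median -0.04), and in regulatory cells 12 of 31 without Cre-positive 3 (median -0.03) and 11 of 24 in thinned cells (median -0.03). Without Cre-positive 2, 18 of the 32 cycling T tests were above 0 (median 0.01). In cycling B cells 23 of 29 were above 0 without Cre-negative 3 (median 0.13) and 10 of 29 without Cre-positive 1 (median -0.17). They were above 0 for 11 of 30 without Cre-negative 1 (median -0.17) and for 7 of 26 with at most 5% mitochondrial UMIs (median -0.19). Cre-negative 1 also stood apart in erythroid and platelet markers, which summed to 5636 CPM in its resting B cells and 3246 CPM in its memory CD4 cells, against 14.3 to 27.7 CPM and 0.667 to 13.2 CPM in the other mice. In naive CD4 cells the sum was 1252 CPM in Cre-positive 2 and 1105 CPM in Cre-negative 1, against 0.840 to 35.4 CPM in the other mice, and the part of this RNA was not tested.

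Members whose Cre-positive values all lay above the Cre-negative ones numbered 6 in naive CD4 cells (5.12% of all genes tested there did so), 7 in naive CD8 (5.39%), 1 in memory CD4 (4.64%), 5 in memory CD8 (6.18%), 2 in regulatory (5.4%), 4 in cycling T (7.98%), 9 in resting B (5.49%) and 0 in cycling B cells (4.44%). Those lying wholly below numbered 1 in naive CD8 (5.47%) and 1 in memory CD4 cells (4.72%). They numbered 0 in naive CD4 (4.95%), memory CD8 (4.63%), regulatory (5.37%), cycling T (7.74%), resting B (5.02%) and cycling B cells (5.59%). In resting B cells C1qbp was 124, 123 and 120 CPM in Cre-positive 1 to 3 and 96.0, 97.1 and 108 CPM in Cre-negative 1 to 3, a log2 difference of 0.28 ± 0.08 that did not pass (adjusted p = 0.550). In naive CD4 cells it was 120, 121 and 121 CPM in Cre-positive 1 to 3 and 92.6, 111 and 109 CPM in Cre-negative 1 to 3 (0.21 ± 0.08, adjusted p = 0.787). C1qbp, which works in mitochondrial translation, also had the smallest p of the 33 in memory CD8 (0.29 ± 0.10, adjusted p = 0.690) and regulatory cells (0.45 ± 0.16, adjusted p = 0.776).

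The other genes with the 4 smallest p in each gate did not pass either. They were Nhp2, Ppan and Ran in naive CD4 cells (0.16 to 0.26 on the log2 scale), Ppan (0.36), Nhp2 (0.26), Ncl (0.22) and Ran (0.22) in naive CD8 cells, and Srm (0.40), Nhp2 (0.29) and Nop16 (0.33) in memory CD8 cells. In memory CD4 cells they were Mybbp1a (-0.30), Nop10 (0.20), Fbl (0.18) and Cad (-0.48), and in regulatory cells Nme1 (0.32), Rrp9 (-0.54) and Ran (0.22). Cycling T cells had Cdk4 (0.47), Nme1 (0.34) and Eif5a (0.33), resting B cells Ran (0.23), Nme1 (0.22) and Nop16 (0.27), and cycling B cells Dkc1 (-0.44), Nolc1 (0.39), Nop10 (-0.23) and Set (0.21). Myc was above 0 in 3 of 8 gates, between -0.20 and 0.12, and Cdk4, Nolc1, Nop16 and Set were above 0 in 8 of 8.

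**Figure D5:**
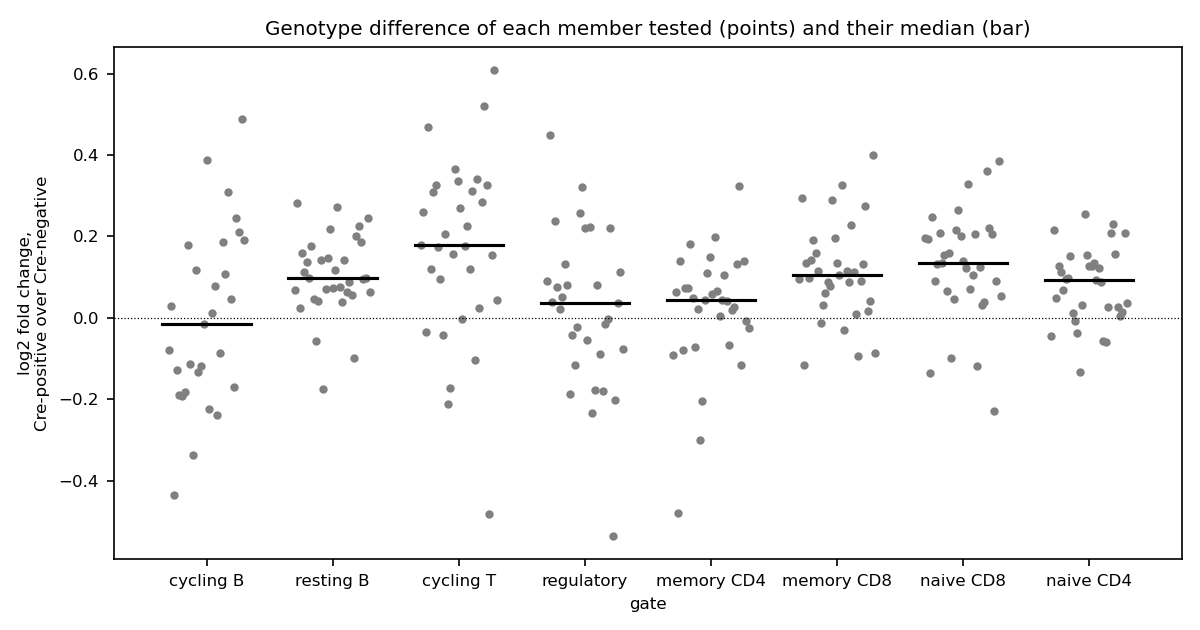
Points are the log2 fold changes, Cre-positive over Cre-negative, of each of the 33 genes tested in each gate, and bars are their medians. The medians run from -0.01 in cycling B to 0.18 in cycling T cells, and none of the points passed the test.

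Whether the genotype difference itself differed between gates was tested for 10 pairs of gates. No member was called in any of them by edgeR, and 21 of these tests had an unadjusted p under 0.05. These were 0 to 5 of the 33 members in a pair, beside 4.57% to 7.42% of all genes tested. Of all genes, 0.0369% were called for naive CD4 against resting B, 0.0998% for memory CD4 against naive CD4, 0.124% for cycling T against naive T, 0.0323% for memory CD8 against naive CD8, 0.0706% for regulatory against naive CD4 and 0.0305% for cycling B against resting B cells. The values were 0.0439% for resting B against naive T, 0.0106% for signal-high against other naive CD4, and 0% for both cycling T against memory T and naive CD8 against naive CD4 cells. The smallest adjusted p among members was 0.0884, in naive CD8 against naive CD4 cells. Ran in cycling T against naive T cells was called only without Cre-negative 2 (0.57 ± 0.13, adjusted p = 0.00398).

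The shares of cells in the gates were compared as well, and none differed beyond the spread between mice. Cycling T cells were 1.44% ± 0.226 of T cells of Cre-positive mice and 1.48% ± 0.516 of those of Cre-negative mice (SD, n = 3 each; exact two-sided permutation p = 0.9). Cycling B cells were 2.01% ± 0.759 of B cells of Cre-positive mice and 2.59% ± 0.847 of those of Cre-negative mice (exact permutation p = 0.4, n = 3 each). Signal-high cells were 15.9% ± 5.69 of naive CD4 cells of Cre-positive mice and 16.1% ± 4.53 of those of Cre-negative mice (exact permutation p = 1, n = 3 each). With 3 mice against 3 the smallest p this test can give is 0.1.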

How the data were processed

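Single-cell RNA-seq counts were analysed from pancreatic lymph nodes of 3 Cre-positive and 3 Cre-negative mice, taken as separate animals from the labels. The authors deposited whole-number UMI counts per gene and cell for each library, made with Cell Ranger 6.1.2. This tool and the build mm10 are named in the submitters' processing notes, and which gene annotation went with them is not given in the sources used here. Positions of genes came from GENCODE on GRCm38. Cells with at least 500 UMIs, 300 genes and at most 10% mitochondrial UMIs were kept, and the barcodes with the highest Scrublet doublet scores (scanpy 1.11.5), 480 to 914 per library, a share that grew with its number of barcodes, were removed; Scrublet's own threshold marked 0 in Cre-positive 2. T and B gates required 2 UMIs of their class markers and none of the other class or of Lyz2, Siglech, Ncr1, Klrb1c and C1qa. CD4 cells had a Cd4 UMI and none of Cd8a and Cd8b1, and CD8 cells the reverse. A cycling cell needed 2 UMIs over Mki67, Top2a, Cdk1, Birc5, Ccna2, Nusap1, Tpx2 and Hmmr. Naive and memory T gates took CD4 and CD8 cells by naive markers that included Ccr7 and Lef1 or by S100a4, Ccl5, Cxcr3, Itgb1, Il2rb, Cxcr6 and Maf. Regulatory cells were CD4 cells with a Foxp3 UMI. Naive cells had no UMI of the memory markers, and naive and memory cells no Foxp3 UMI. Naive, memory and regulatory cells were not cycling, and resting B cells had no UMI of the cycling markers.

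Counts were summed per mouse and gate and tested with edgeR 4.0.16 (quasi-likelihood F test, TMM, low-count filter, R 4.3.3), with Benjamini-Hochberg adjustment over all genes tested. Gates were compared with the mouse as a block, since both gates come from the same animal, and genotypes without a block. The scripts were tested on simulated data. For genotype in cycling T cells they recovered 14% of 1.5-fold and 54% of 2-fold changes. In naive CD4 cells the shares were 82% and 98%, so a missing call says less in the small cycling gate. Alternatives were DESeq2 1.42.0, scaling, filters, thinned cells, doublets kept and each mouse left out. The standard error given with an edgeR log2 fold change is its absolute value divided by the square root of the F statistic. Intervals and standard errors describe 6 mice only.

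All 33 genes, and per list and direction up to 4 genes of smallest p, were named, and per role group the gene with the strongest contrast was printed per mouse. The genes, lists and rules were chosen with earlier results of these data known, so no count is independent of them. The floxed gene is not reported.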

Additional observations from a re-analysis of the deposited data

How the results depend on the processing

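The genotype result, 0 of the 33 called, was the same in every gate under every alternative run except for Ran in cycling T cells: 1 was called there without a low-count filter, 0 to 1 when each mouse was left out, and 0 to 1 for the interaction of cycling T with naive T cells. The deviations of same-numbered mice from their group means had correlations of -0.134 to 0.171. With 3 mice per group and no litter or batch in the labels, this cannot decide whether same-numbered mice share more than a number. With a replicate block, 0 of the 33 were called in every gate. Calls among all genes in the genotype comparison of cycling T cells were 13, 73 without a low-count filter and 3 to 178 with a mouse left out. In cycling B cells they were 1, 26 and 1 to 84.

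Scaled by total UMIs only, memory CD4 cells had 9 higher and 5 lower than naive CD4 cells, with Npm1 at 0.0787, Nme1 at 0.0578 and Hnrnpab at 0.0502; regulatory cells had 6 higher and 3 lower, with Npm1 at 0.0372 and Eif4a1 at 0.0123; naive CD8 cells had 10 higher and 2 lower. With DESeq2, 7 were higher in memory CD8 cells, 12 in naive CD8 cells, and 1 was lower in cycling than in memory T cells. Among cells with at most 5% mitochondrial UMIs, 7 were lower in regulatory cells, 1 in cycling against naive T cells and 0 in cycling against memory T cells, and Eif5a was at 0.0174 in resting B against naive T cells. Without a low-count filter, 13 were higher in naive CD8 cells and Myc was at -0.0079 in regulatory cells. With the mouse not taken as a block, 3 were higher in memory CD8, 12 higher and 0 lower in naive CD8 and 3 higher in signal-high cells. With a mouse left out, 0 to 4 were lower in cycling against memory T cells and 1 to 2 in naive CD8 cells.

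Thinning to 2000 UMIs per cell, which leaves fewer counts, gave 1 higher in memory CD4, 4 in memory CD8, 12 in naive CD8 and 2 in signal-high cells, 7 lower in regulatory and 11 lower in resting B cells. It gave 9 higher and 0 lower in cycling against naive T cells, 8 and 0 against memory T cells, and 8 and 0 in cycling against resting B cells. Nop58 was then at -0.0363 in memory CD8 cells and Fbl at -0.058 in the genotype comparison of memory CD4 cells. Dkc1 was at -0.0174, Gar1 at -0.2437, Srm at -0.1443 and Nolc1 at -0.1567 in cycling against naive T cells. Against memory T cells Gar1 was at -0.188, Srm at -0.3008, Nolc1 at -0.142 and Gnl3 at 0.0197, and in cycling against resting B cells Rrs1 was at -0.0097, Srm at -0.4435, Ppan at -0.0777 and Nolc1 at -0.0944. The cause of these changes was not tested.

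The difference in the share of cycling T cells, Cre-positive minus Cre-negative, was 0.0763 percentage points with gates of 3 UMIs, 0.0059 with doublets kept and -0.2278 to 0.259 with a mouse left out. Calls among all genes fell under DESeq2 to 2200 of 3377 in memory CD4, 405 of 1130 in memory CD8, 1828 of 3145 in naive CD8 and 235 of 531 in signal-high cells. The precision of the cycling gates is limited by 26 to 57 cycling B and 60 to 92 cycling T cells per mouse.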

Other observations

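The UMIs of the 33 genes in single cells were described per mouse by their median and 95th percentile. Cells were thinned to 2000 UMIs, and cells with fewer were left out. The median cycling T cell then held 10 to 12 UMIs of the 33 genes in the 6 mice, against 9 to 10 in naive CD4 cells. The 95th percentile was 23 to 50.2 UMIs in cycling T cells and 17 to 19 UMIs in naive CD4 cells. In cycling B cells the median was 10 to 15 UMIs and the 95th percentile 21.8 to 45.4, against medians of 8 to 9 and 95th percentiles of 19 to 23.7 in resting B cells. Regulatory cells had medians of 9 to 10 and 95th percentiles of 18.8 to 30.6. These percentiles rest on 25 to 53 cycling B and 58 to 90 cycling T cells per mouse and were not tested.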
